A study of Oryza sativa with 4 samples.

Results

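The genes described here are 10 gene IDs of rice listed as heat shock proteins (HSPs) and ClpB chaperones, out of 37858 IDs in the count table. They were taken from the table by ID and not by a threshold on any measured value, though earlier results of these data were known. All 10 are in the table, and 6 had enough reads to be tested. The list gives 1 as cytosolic ClpB (HSP101), 1 as chloroplast ClpB, 1 as HSP90, 2 as cytosolic HSP70 and 5 as small HSPs. The deposited table holds IDs without names, so these classes come from the list and could not be checked against the files. No gene name could be attached to the IDs around them either, which also leaves the leaf label without a marker check.

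Leaf RNA of the japonica cultivar Nipponbare, the source of the rice reference genome, was sequenced as poly(A) RNA in 4 libraries. The leaves were those of progeny: in the heated group the seed had been heat treated, and the control group is its comparison, with 2 libraries in each group. The treatment label gives an incubation at 25 °C for control 1 and at 30 °C for control 2, heated 1 and heated 2, so the controls differ from each other in this label and control 2 shares it with the heated group. Whether the label of control 2 is a slip, at which stage the incubation took place, and how many plants went into a library are not stated. All libraries share the cultivar and the tissue, and no mutant or transgene is named. Libraries held between 15444235 and 17298384 expected counts.

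Molecular chaperones bind proteins that have unfolded or have not yet folded. Small HSPs hold unfolding proteins without using ATP, HSP70 and HSP90 fold and mature them with ATP, and ClpB, known as HSP101 in the plant cytosol, pulls proteins back out of aggregates together with HSP70. In plants, heat stress transcription factors induce many of these genes strongly while the tissue is hot, whereas constitutive HSP70 members and chloroplast ClpB also serve leaves that are not stressed. HSP101 is best known, from Arabidopsis and maize, for its need in acquired thermotolerance. The comparison asks whether leaves of the next generation carry different transcript levels of this machinery after the seed was heated.

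No chaperone gene passed the test between heated and control progeny. Of the 6 tested, 0 were called higher and 0 lower (quasi-likelihood test of edgeR, threshold 0.05 on the p adjusted over all tested genes by Benjamini and Hochberg). In the same fit 0.699% of the 22184 tested genes were called, 0.248% higher and 0.451% lower, and 0 of 6 is near that background. Before adjustment 0 of the 6 had a p under 0.05, against 9.23% of all tested genes, and DESeq2 also called 0 of the 6, against 2.35% of its tested genes. The fitted log2 fold changes ranged from -0.62 to 0.30, with 5 below 0 and 1 above 0. Over all tested genes 49.1% were below 0. The median of the 6 was -0.24, beside 0.0061 for all tested genes. Os05g0519700, Os03g0266900 and Os01g0184100, with 95, 63 and 202.68 counts over all libraries, had -0.39, -0.36 and -0.62. Os03g0426900, Os03g0821100 and Os11g0703900, with at least 10653 counts each, had 0.30, -0.02 and -0.12. The 95% intervals of all 6 included 0, and the highest upper bound among them was a 1.78-fold level in heated leaves. For Os03g0426900, Os03g0821100 and Os11g0703900 a 2-fold rise lay outside the interval in each of 14 fits with an interval, this one and 13 alternatives, with upper bounds of at most 1.98-fold. For the other 3 it lay inside under some alternatives: the upper bound reached 2.59-fold for Os05g0519700 and 2.82-fold for Os03g0266900 without heated 2, and 3.09-fold for Os03g0266900 without heated 1. By DESeq2 it was 2.08-fold and 2.58-fold for these genes. For Os01g0184100 it was 2.73-fold without control 2 and 2.40-fold without heated 2, and it reached 5.59-fold with libraries grouped by the label. The lower bounds of the reported fit were wider, down to 0.239-fold for Os01g0184100. A 2-fold fall also lay inside the reported intervals of Os05g0519700 and Os03g0266900, with lower bounds of 0.368-fold and 0.345-fold. For Os11g0703900 it lay just inside the interval without heated 2, with a lower bound of 0.495-fold. For Os03g0426900 and Os03g0821100 a 2-fold fall lay outside the interval in each of the 14 fits. In whole leaves, fewer cells that use a gene and less of its RNA per cell cannot be told apart.

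By the median over the tested members, the controls were about as far apart as the groups, though measured on another scale, and the heated libraries were closer together. The median absolute fitted log2 fold change was 0.33 in the 6 tested members and 0.20 in all tested genes. On the log2(CPM + 0.5) scale, where CPM is the count scaled by library size, the median absolute difference between control 1 and control 2 was 0.29 in the 6 tested members and 0.27 in all tested genes. The median absolute difference between the heated libraries was 0.16 in both sets. The fitted change compares groups of 2 libraries without the added 0.5 CPM, which shrinks differences at low counts. The library differences are therefore only roughly comparable with it. In Os05g0519700, Os11g0703900 and Os01g0184100 the heated libraries were farther apart than the controls. In the other tested members they were closer. Control 1 was the lowest of the 4 libraries in 2 of the 6 members (34.9% of all tested genes) and the highest in another 2 (33.8% of all).

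**Figure D1:**
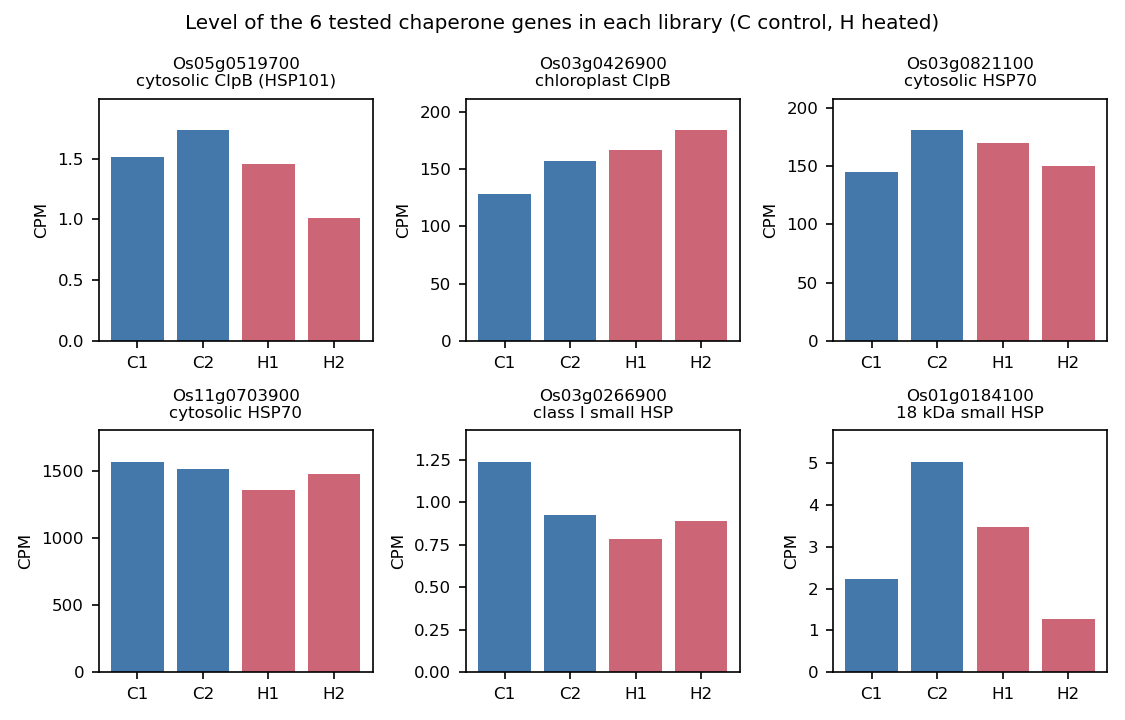
Level of the 6 tested chaperone genes in each library, in CPM (counts scaled by library size), with control libraries (C1, C2) in blue and heated libraries (H1, H2) in red; each bar is 1 library and each panel has its own axis from 0. Only the chloroplast ClpB has both heated bars above both controls, 166 and 184 against 128 and 157 CPM, and the 18 kDa small HSP varies most within a group.

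The ClpB disaggregases differed in how many reads they drew. Os05g0519700, listed as cytosolic ClpB (HSP101), had 22 counts in control 1, 30 in control 2, 26 in heated 1 and 17 in heated 2. The CPM values in the same order were 1.51, 1.73, 1.46 and 1.01. Both heated libraries were below both controls, but heated 1 lay only just under control 1. Control leaves averaged 1.62 ± 0.156 CPM and heated leaves 1.23 ± 0.317 CPM (SD, n = 2 each). The fitted log2 fold change was -0.39 (SE 0.43), and its adjusted p in edgeR was 0.84. The 95% interval ran from 0.368-fold to 1.58-fold, on 95 counts over all libraries. The log2 fold change was -0.68 without heated 1 and -0.15 without heated 2, so single libraries moved it by over 1.5 times.

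Os03g0426900, listed as the chloroplast ClpB, which serves protein folding in the plastid stroma, was the only member with a fitted change above 0. It had 128 and 157 CPM in control 1 and 2, and 166 and 184 CPM in heated 1 and 2. Both heated libraries were above both controls, with control 1 the lowest and control 2 close to heated 1. A complete separation in this direction was found in 21% of all tested genes. The group means were 142 ± 20.5 and 175 ± 12.3 CPM (SD, n = 2), a log2 fold change of 0.30 (SE 0.16), and the edgeR adjusted p was 0.65. The 95% interval ran from 0.944-fold to 1.60-fold, so an increase of 2-fold lay outside it.

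The size of that difference depended on which control was used. Against control 1 alone (25 °C label) the log2 fold change of Os03g0426900 in heated leaves was 0.44 (SE 0.14), with an unadjusted p of 0.0138 and an edgeR adjusted p of 0.0856 in the fit across all genes. Against control 2 alone (30 °C label, as in heated) it was 0.15 (SE 0.14), and its adjusted p in edgeR was 0.834. With libraries grouped by the label, 30 °C was above 25 °C by 0.40 (SE 0.13) on the log2 scale, with an unadjusted p of 0.0245 and an adjusted p of 0.176 in edgeR. None of these passed, and all use the same heated libraries. These fits called 0 of the 6 members, against 10.9% of all tested genes for control 1 alone, 2.18% for control 2 alone and 0.747% between the labels. An unadjusted p under 0.05 was common in the fits with control 1 alone on 1 side: 27.6% of tested genes had one between control 1 and heated, and 21.3% between the labels. In these fits the lone library is assumed to vary like the others, and its label cannot be told apart from the library itself.

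HSP90 stabilises and activates signalling proteins and is one of the most abundant proteins of the cytosol. The listed HSP90 ID, Os04g0107900, was nearly without reads: it had 1 count in heated 1 and 0 counts in the other 3 libraries. A count of 0 allows up to 3 counts, or between 0.173 and 0.206 CPM in those libraries. It was not tested, and no fold change is given because both groups are at or under this floor. The value describes this ID and not HSP90 as a family, since other HSP90 genes were not listed.

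The listed cytosolic HSP70 genes had the most reads of the set. Os11g0703900 had 1568 and 1514 CPM in control 1 and 2, and 1361 and 1481 CPM in heated 1 and 2. Both heated libraries were below both controls, by a margin smaller than the gap between the heated libraries. The log2 fold change was -0.12 (SE 0.17), the edgeR adjusted p was 0.887 and the 95% interval ran from 0.688-fold to 1.24-fold. This gene alone took 98356 of the expected counts over the 4 libraries, against 10821 for the other listed HSP70, Os03g0821100.

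Os03g0821100 had 145 and 181 CPM in control 1 and 2, and 170 and 151 CPM in heated 1 and 2. The groups overlapped, with both heated libraries between the controls. Control leaves averaged 163 ± 25.2 CPM and heated leaves 160 ± 13.9 CPM (SD, n = 2 each). The fitted log2 fold change was -0.02 (SE 0.16), its adjusted p in edgeR was 0.979 and the 95% interval ran from 0.748-fold to 1.30-fold. The sign of this small difference turned with the control: it was 0.13 (SE 0.14) against control 1 alone and -0.18 (SE 0.14) against control 2 alone. Summed, both HSP70 genes made up between 0.158% and 0.171% of the counts of a library.

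**Figure D2:**
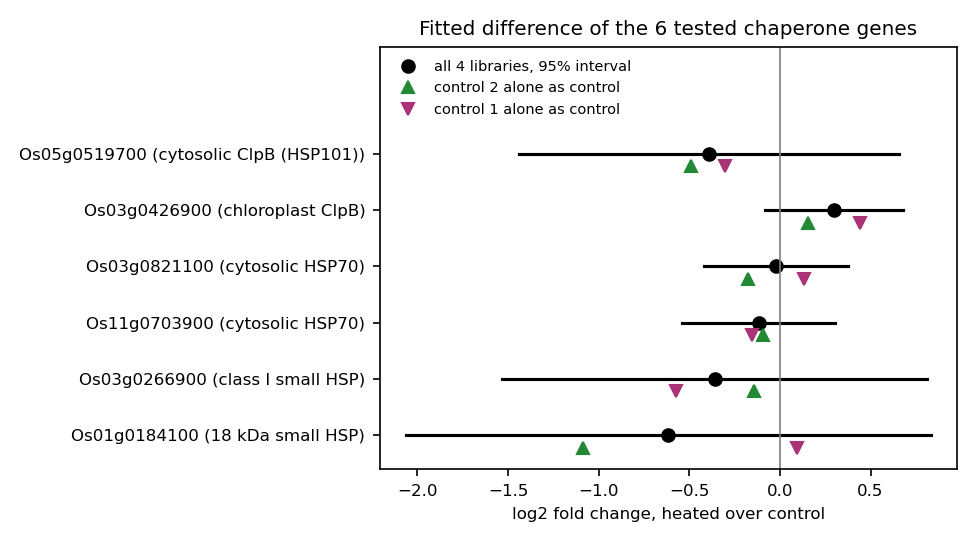
Log2 fold change of heated over control for the 6 tested chaperone genes; black points and lines give the fit on all 4 libraries with its 95% interval, green triangles the fit with control 2 as the only control, and purple triangles that with control 1. Every interval crosses 0, and the triangles lie on opposite sides of 0 for Os03g0821100 (0.13 and -0.18) and Os01g0184100 (0.09 and -1.09).

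The small HSPs, which are among the most heat-inducible genes of plants, were scarce in all 4 libraries. Summed over the 5 listed genes they had 55.01 expected counts in control 1, 104.08 in control 2, 76.85 in heated 1 and 43.79 in heated 2. As RSEM divided the reads, Os01g0184100 had more of these than the other 4 together in control 1, control 2 and heated 1, but not in heated 2 (21.45 against 22.34). Without it the other 4 had between 15 and 22.63 expected counts in a library, or between 0.840 and 1.55 CPM in all, and the groups overlapped.

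Among the class I small HSPs, which act in the cytosol, Os03g0266900 was the only ID with enough reads to test. It had 18 counts in control 1, 16 in control 2, 14 in heated 1 and 15 in heated 2, which is 1.24 and 0.923 CPM against 0.784 and 0.889 CPM. Both heated libraries were below both controls, but control 2 and heated 2 were 1 count apart. The difference was -0.36 (SE 0.48) on the log2 scale, its adjusted p in edgeR was 0.876 and the 95% interval ran from 0.345-fold to 1.76-fold. Without control 2 the difference was -0.57, and without control 1 it was -0.15. In all, 3 of the 6 tested members had both heated libraries below both controls, as did 19.5% of all tested genes. Those 3 are Os05g0519700, Os11g0703900 and Os03g0266900, and none was called.

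Os03g0267000, the next ID on chromosome 3 by number, had 1 count in control 1, 0 in control 2, 1 in heated 1 and 3 in heated 2. The heated to control ratio of 4 counts to 1 was 3.68, with an exact 95% counting interval from 0.364 to 181. At this depth no difference could be detected. Os03g0245800, listed as an organellar small HSP, had 0 counts in every library. The floor of 3 counts is 0.168 to 0.206 CPM in each. Os01g0136100, a class I member, had expected counts of 3.63 in control 1, 1.08 in control 2, 0 in heated 1 and 4.34 in heated 2. On rounded counts, 4 in heated against 5 in control, the ratio was 0.735 with an exact 95% counting interval from 0.146 to 3.42. These intervals cover counting error only.

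Os01g0184100, listed as an 18 kDa small HSP, varied most among the tested members. It had expected counts of 32.38 in control 1, 87 in control 2, 61.85 in heated 1 and 21.45 in heated 2. In the same order these are 2.22, 5.02, 3.46 and 1.27 CPM. The highest library was control 2 and the lowest heated 2, a 3.95-fold range, and the groups overlapped. Each group held libraries at least 2-fold apart on the log2(CPM + 0.5) scale, where the controls were as far apart in 5.95% of all tested genes and the heated libraries in 2.24%. The fitted log2 fold change was -0.62 (SE 0.60), and its adjusted p in edgeR was 0.814. It was 0.09 against control 1 alone and -1.09 against control 2 alone, with edgeR adjusted p values of 0.939 and 0.532.

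The share of reads given to this ID, beside its neighbour, also varied between libraries. In control 1 and both heated libraries, Os01g0184100 and the ID just before it, Os01g0184050, had fractional counts that summed to whole numbers. In control 2 neither was fractional. The sums were 57 counts in control 1, 87 in control 2, 79 in heated 1 and 47 in heated 2. RSEM had thus split reads between them in the 3 libraries with fractional counts. Whether the shares reflect this split or a difference between the IDs was not tested. Os01g0184100 received 56.8% of the sum in control 1, 100% in control 2, 78.3% in heated 1 and 45.6% in heated 2. The summed level, in that order of libraries, was 3.91, 5.02, 4.43 and 2.79 CPM. The pair averaged 4.47 ± 0.781 CPM in control leaves and 3.61 ± 1.16 CPM after heat (SD, n = 2 each). Its fitted log2 fold change was -0.31 (SE 0.34) with an adjusted p of 0.839 in edgeR, about midway between 0 and the value of the member alone.

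Fractional counts that summed to whole numbers were also found for Os01g0136100 and the ID after it, Os01g0136200, except in heated 1, where neither was fractional. Their sums were 16 counts in control 1, 24 in control 2 and 12 in each heated library, and Os01g0136100 was given between 0% and 36.2% of them. The summed level was 1.10 CPM in control 1, 1.38 in control 2, 0.672 in heated 1 and 0.712 in heated 2. Both heated libraries were below both controls, as in 19.5% of all tested genes. With the reads summed the pair could be tested in edgeR. Its fitted log2 fold change was -0.84 (SE 0.48), with an unadjusted p of 0.127 and an adjusted p of 0.674. Most of the summed reads were given to Os01g0136200. Tested alone by edgeR, that ID had a log2 fold change of -0.90 and an adjusted p of 0.699. The summed value thus describes mainly that ID and not Os01g0136100. Whether that ID is also a small HSP could not be checked here. The reference table names neither neighbour, so no role is given to them.

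**Figure D3:**
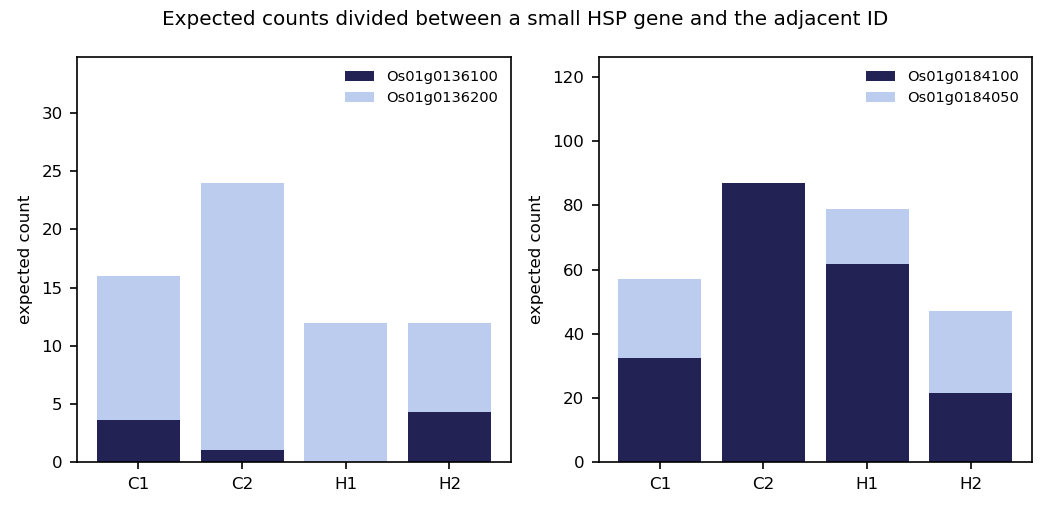
Expected counts of 2 small HSP genes (dark), each with the adjacent ID that shares its reads (light) stacked on top, in control (C1, C2) and heated (H1, H2) libraries. The height of a bar is a whole number of reads, such as 57, 87, 79 and 47 for the pair of Os01g0184100, while the dark part ranges from 45.6% to 100% of it in that pair.

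No called gene lay within 5 IDs of a member. The 5 IDs on each side of every member make up 90 other IDs, of which 61 were tested and 0 were called in either direction by edgeR, where 0.699% of all tested genes were called. Profiles over the 4 libraries were compared by the root mean square difference of centred log2(CPM + 0.5) values. The most alike members were Os11g0703900 and Os03g0266900, with a difference of 0.102, followed by Os05g0519700 and Os03g0821100 with 0.170. Os03g0266900 had only 14 to 18 counts in a library and Os05g0519700 17 to 30. At such levels the added 0.5 CPM flattens a profile and counting error is large, so little can be read from these likenesses. The least alike were Os03g0426900 and Os01g0184100, with 0.678. The tested genes outside the list that lay closest to the median profile of the members were Os05g0295100 and Os03g0157500, both with a difference of 0.0141. These are descriptions over 4 libraries of a profile that is nearly flat, between -0.08 and 0.10 around its mean.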

How the data were processed

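The authors deposited expected counts per gene ID, which the file headers trace to gene-level output of RSEM, without normalization. Per the submitters' processing notes, the tools were edgeR 3.26.3, RSEM, Bowtie2, Trimmomatic and FastQC 0.11.7, and the build was IRGSP-1.0. For their settings and the annotation: not given in the sources used here. Groups follow the sample titles. Nothing says that libraries came from separate plants, so the spread behind every p-value is that between libraries and may be technical. The table had 0 columns of other samples. The reference table (ASM3414082v1) matched 1 of the 37858 IDs and 0 of the 10 members, so no wider chaperone list was counted and no sequence is shown.

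Expected counts were rounded and fitted in R 4.3.3 with edgeR 4.0.16 (filterByExpr, minimum count 10 and total 15, TMM, group as the only term). P-values were adjusted over all 22184 tested genes. CPM use the TMM-scaled library sizes. Standard errors are the log2 fold change over the square root of F, and 95% intervals use the moderated degrees of freedom. The test was checked on simulated data. Alternatives, with DESeq2 1.42.0 and limma 3.58.1 among them, are given at the end. Summing IDs that share reads (sums whole within 0.005) was chosen after seeing the data. Members and lists were chosen with earlier results of these data known. All members are named; other IDs only as neighbours sharing reads or as the 2 closest profiles.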

Additional observations from a re-analysis of the deposited data

How the results depend on the processing

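The count of 0 called chaperone genes was the same under all 15 alternatives. With 2 libraries a group this does not show that their levels were equal. Without a filter on low counts 9 members could be tested, and with shared reads summed 7, and none was called. The addition under summing was Os01g0136100 with its neighbour Os01g0136200, and the neighbour held most of the reads of that pair. An unadjusted p under 0.05 was found only for Os03g0426900, under the label grouping and without control 2. The number of calls over all genes, 155 in the reported test, was 419 without a filter, 551 with DESeq2's Wald test, 732 with edgeR's exact test and 532 with a replicate block. It ranged from 64 (without heated 1) to 2506 (without control 2) when 1 library was left out, with 504 without control 1. The replicate numbers are not treated as pairs: the labels name no shared batch, and across genes the replicate differences of control and heated had a correlation of -0.0145. The replicate block called 0 of the 6 members. Of 90 member values under an alternative, 85 kept direction and stayed uncalled. The other 5 turned direction, all uncalled: Os03g0821100 to 0.20 under the label grouping, 0.13 without control 2 and 0.06 without heated 2, and Os01g0184100 to 0.56 under the label grouping and 0.09 without control 2. The label grouping sets control 2 and the heated libraries against control 1, so its direction is that of another comparison. The cause of these turns was not tested. When 1 library was left out, Os03g0821100 ranged from -0.177 to 0.13, Os01g0184100 from -1.53 to 0.0913, Os05g0519700 from -0.68 to -0.15, Os03g0266900 from -0.57 to -0.15, Os03g0426900 from 0.15 to 0.44 and Os11g0703900 from -0.18 to -0.06. A lone library of a group is taken to vary as much as the other group. The 4 untested members had between 0 and 9.05 expected counts over all libraries, too few to show a difference.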
